A study of Homo sapiens with 2 samples.

Results

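The 40 genes described here encode the enzymes of mitochondrial and peroxisomal fatty acid oxidation, enzymes of ketone body formation, and regulators and targets of PPARα, the fatty acid-sensing nuclear receptor of the liver. They were taken from a fixed list of gene symbols, chosen with earlier results of these data known, and are 40 of the 60623 gene entries counted. To ask how lipid-loaded liver cells respond to the retinoid 9-cis-RA (9-cis-retinoic acid), poly(A) RNA of wild-type HepG2 cells, a human hepatocellular carcinoma line, was sequenced in 2 libraries. In both groups the cells were loaded for 24 h with 1 mM free fatty acids (FFA), a mixture of oleic and palmitic acid bound to albumin, and the FFA + 9-cis-RA group also received 10 μM 9-cis-RA, a ligand of the RXR and RAR nuclear receptors. Each group is 1 library, and the sample records place both in the same batch.

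Fatty acids enter mitochondria through the carnitine shuttle and are shortened there by repeated rounds of oxidation, hydration, oxidation and thiolysis, which yield acetyl-CoA for the citric acid cycle or for ketone bodies. Peroxisomes carry out the same chemistry on very-long-chain and branched acyl chains with separate enzymes, and pass the shortened products on. PPARα binds DNA as a heterodimer with RXR at direct repeats of a hexamer spaced by a single base, and in the fasting liver it raises many genes of both routes.

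Total counts were 60821539 fragments for FFA and 57669670 for FFA + 9-cis-RA. Counts were divided by size factors and 1 was added. The log2 fold change of FFA + 9-cis-RA over FFA, written here as the log2 difference, was taken for the 20431 genes that reached 10 counts in the 2 libraries together. The range in parentheses after it is an exact 95% interval that covers counting error only. No test or replicate check is possible with single libraries, and a difference between these cultures cannot be told apart from one between the treatments. Bulk RNA also cannot tell apart less RNA per cell and fewer cells that express a gene. CYP26A1, the retinoic acid hydroxylase gene that retinoids induce, had 4 counts without and 709 with 9-cis-RA, as the treatment labels have it. Of 6 hepatocyte markers, APOA1, SERPINA1 and HNF4A had at least 21509 counts and log2 differences between -0.14 and 0.039. ALB was lower with 9-cis-RA, at 186609 and 112866 counts (-0.70), and so was AFP, at 273242 and 134862 (-0.99), while TTR had only 341 and 278. Among markers of other cell types, PTPRC was at 0, COL1A1, COL3A1, PDGFRB and PECAM1 had at most 52 counts, VWF had 184 and 118 and ACTA2 had 1186 and 773. The part of these marker differences in the values of the oxidation genes was not tested.

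Most fatty acid oxidation genes differed little between the libraries. Of the 40 genes, 39 passed the count minimum. The median over them was -0.072 on the log2 scale, against -0.020 for all compared genes. With 9-cis-RA 15 were higher and 24 lower, or 18 and 21 when libraries were scaled by total counts. A log2 difference within 0.5 of zero was found for 35 of the 39 genes, or 89.7%, against 76.7% of all compared genes. Among genes with at least 1000 counts, however, these shares were 91.7% of 36 members and 93.9% of all 10298 genes. The lowest of the 39 was BDH1, which encodes mitochondrial 3-hydroxybutyrate dehydrogenase, and the highest was PDK4, at low counts.

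Counted against the background of all compared genes, 1 of 39 members lay above 1 on the log2 scale (3.37% of all genes) and 1 lay below -1 (4.9% of all genes). Above 0.5 there was 1 member (9.03% of all genes), and below -0.5 there were 3 members (14.3% of all genes). These 3, BDH1, EHHADH and ACADSB, all had more than 1000 counts, where 4.38% of all genes were below -0.5 and 0.66% below -1. The counting interval lay wholly above 0 for 11 members (22.5% of all genes) and wholly below 0 for 20 members (25.7% of all genes). Zero was inside the interval for the other 8. Among genes with at least 1000 counts, the interval lay wholly below 0 for 20 of 36 members (34.7% of all such genes) and wholly above 0 for 10 (34.4% of all such genes). The medians at this depth were -0.078 for the members and 0.0062 for all genes.

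**Figure D1:**
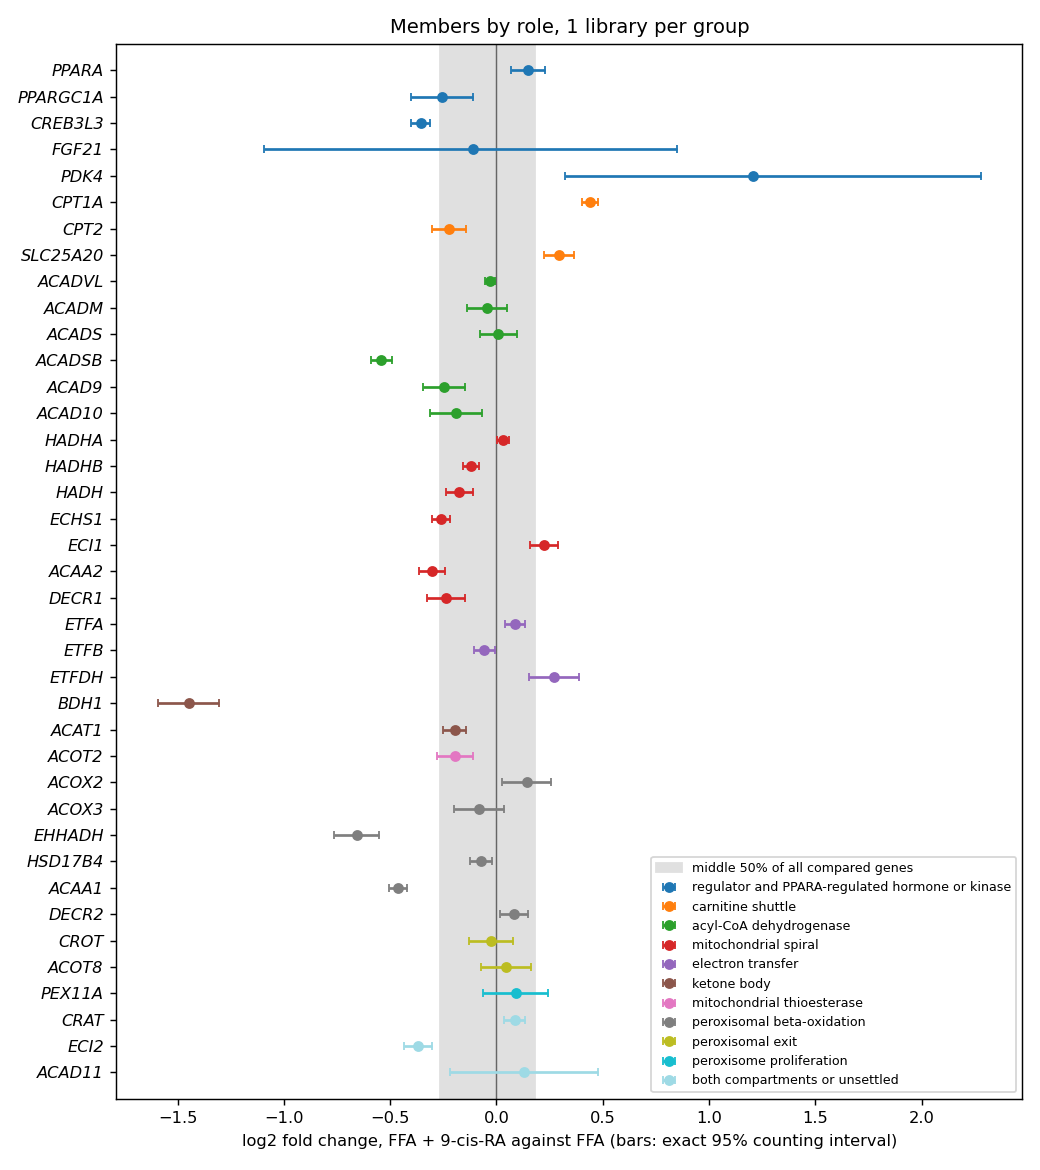
Log2 difference (axis: log2 fold change) of each of the 39 compared genes, FFA + 9-cis-RA against FFA, by role; points are the values, bars the exact 95% counting intervals, and the grey band the middle 50% of all compared genes (-0.26 to 0.18). BDH1 at -1.45 lies far left of the band, PDK4 at 1.21 has a wide bar, and CPT1A at 0.44 is the highest well-counted gene.

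Per unit length, the pathway spans a wide range of abundance. Levels are given as FPKM, the counted fragments of a gene scaled by its exonic length and by the library total. The highest levels in both libraries were those of ECHS1, the short-chain enoyl-CoA hydratase, ACADVL, the very-long-chain acyl-CoA dehydrogenase, and HADHA, the α subunit of the mitochondrial trifunctional protein. ECHS1 had 131 FPKM without and 113 with 9-cis-RA. ACADVL had 105 and 107 FPKM, and HADHA had 71.6 and 75.6. CREB3L3 and HADHB held the next places in both libraries, so the first 5 ranks were the same. Below them the order changed: CPT1A moved from rank 8 to 6, SLC25A20 from 9 to 7, and ACAA1 from 6 to 11. At the other end, PDK4, FGF21 and ACAD11 were below 1 FPKM in both libraries. ACADL, the long-chain acyl-CoA dehydrogenase gene, had 1 count in the FFA library and 0 in the other, which is too few to compare, since a count of 0 allows up to 3.

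**Figure D2:**
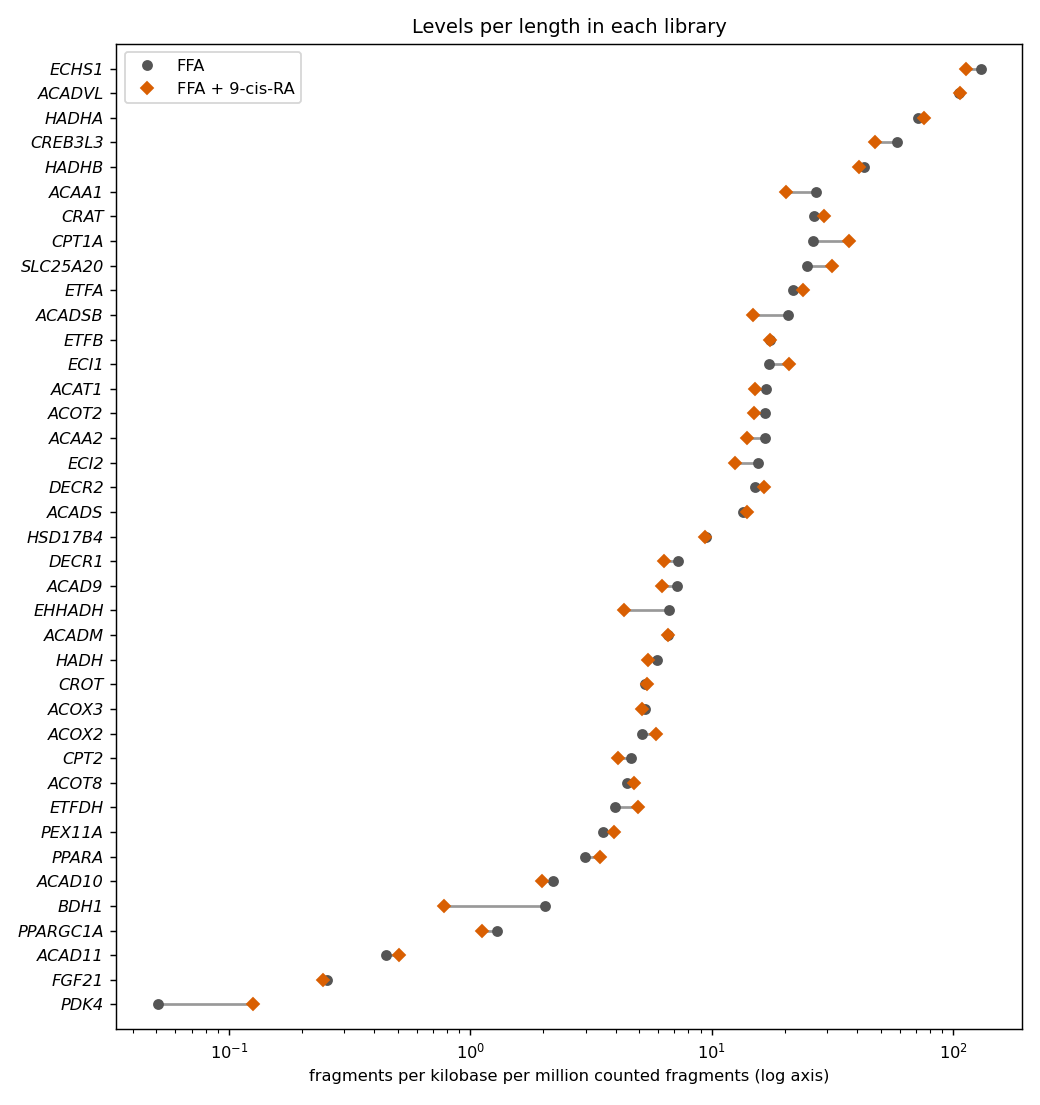
Level of each gene with counts in both libraries, in FPKM on a log axis; circles are the FFA library and diamonds the FFA + 9-cis-RA library, ordered by the FFA level. ECHS1, ACADVL and HADHA head both libraries, and BDH1 shows the longest step to the left, from 2.04 to 0.775.

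Among the regulators, PPARA itself had 2403 counts without and 2613 with 9-cis-RA. Its log2 difference was 0.15 (0.068 to 0.23). PPARGC1A encodes PGC-1α, a coactivator that raises mitochondrial oxidative genes. It had 852 and 700 counts, a log2 difference of -0.26 (-0.40 to -0.11). CREB3L3, a membrane-bound transcription factor of hepatocytes that acts with PPARα on fasting genes, had 9452 and 7242 counts, a log2 difference of -0.36 (-0.40 to -0.31). With 9-cis-RA the receptor gene was thus slightly higher and both of these regulators lower.

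FGF21 and PDK4 are widely used as readouts of PPARα. FGF21, a fasting hormone secreted by hepatocytes, had 21 and 19 counts, and its interval ran from -1.09 to 0.85, so no difference was detectable at this depth. PDK4, the kinase that shuts off pyruvate dehydrogenase and spares glucose, had 14 and 33 counts, a log2 difference of 1.21 with an interval from 0.32 to 2.28. Its level stayed low in both libraries, at 0.0507 and 0.126 FPKM. PEX11A, a peroxisome division gene and PPARα target, had 686 and 717 counts, and its interval held 0 (-0.062 to 0.24).

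The RefSeq windows from 250 bases before to 50 after each gene start (GRCh38.p14) were searched on both strands, and 32 of the 40 genes had a window, 42 windows in all. The PPARα-RXR type repeat, written as 2 copies of AGGNCA with any 1 base between them, was found in 1 member, CREB3L3, and in 0.310% of all 35116 windows. Its site is shown because it is the only match among the genes with a window. Only 4 of the 8 peroxisomal genes had one, so EHHADH, ACAA1, ACOX2 and DECR2 were not searched. It lies on the plus strand at chr19:4153395-4153435 with the repeat in capitals, and the repeat begins at position -222 from the start.

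CREB3L3 site: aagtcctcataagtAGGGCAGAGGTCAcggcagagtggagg

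The repeat of CREB3L3 overlaps a copy of the plain hexamer AGGTCA. Besides CREB3L3 this hexamer was found in ACAD10, and it was found in 13.8% of all windows. GC boxes (GGGCGG) were present in 29 of the 42 member windows, against 45.0% of all windows, and CCAAT in 10 of 42, against 34.6%. These windows leave out distal and most intronic sequence, and a match is a description of letters only.

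In the carnitine shuttle, 2 of 3 genes were higher with 9-cis-RA. CPT1A, the malonyl-CoA-sensitive carnitine palmitoyltransferase that controls entry of long chains into mitochondria, lies on chromosome 11 from 68754620 to 68844410. Its counts were 10528 without and 14019 with 9-cis-RA, a log2 difference of 0.44 (0.40 to 0.48), which is above 89.7% of all compared genes. SLC25A20, the carnitine-acylcarnitine carrier of the inner membrane, had 2854 and 3434 counts, a log2 difference of 0.29 (0.22 to 0.37). CPT2, which re-forms acyl-CoA on the inner face of that membrane, went the other way, with 2831 and 2379 counts and a log2 difference of -0.22 (-0.30 to -0.14). The ratio of CPT1A to CPT2 counts, which does not depend on the scaling of the libraries, was higher by 0.66 on the log2 scale in the FFA + 9-cis-RA library (95% counting interval 0.58 to 0.75).

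ACADVL, ACADM and ACADS, acyl-CoA dehydrogenases of straight chains, hardly differed between the libraries. ACADVL had 30843 and 29621 counts, a log2 difference of -0.031 (-0.054 to -0.0076), and it turned to 0.018 under total-count scaling. ACADM, the medium-chain enzyme, had 1908 and 1815 counts, and its interval held 0 (-0.14 to 0.049). ACADS, the short-chain enzyme, had a log2 difference of 0.0086, with an interval from -0.079 to 0.096. In contrast, ACADSB was lower with 9-cis-RA. It encodes the short/branched-chain dehydrogenase, known best for isoleucine breakdown, and lies on chromosome 10 from 123008979 to 123058311. ACADSB had 7887 and 5316 counts, a log2 difference of -0.54 (-0.59 to -0.49). Scaled by total counts it was at -0.49, no longer past -0.5. ACAD9, also an assembly factor of respiratory complex I, and ACAD10 were at -0.25 and -0.19.

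In the mitochondrial spiral itself, 5 of 7 genes were lower and 2 were higher with 9-cis-RA, all between -0.30 and 0.22. HADHA had 18851 and 18880 counts, a log2 difference of 0.030 (0.00066 to 0.059). HADHB, the β subunit with the thiolase activity of the same trifunctional protein, had 11151 and 10064 counts, a log2 difference of -0.12 (-0.16 to -0.081). The ratio of HADHB to HADHA counts was at -0.15 (95% counting interval -0.20 to -0.10). Both genes leave from the same stretch of chromosome 2 in opposite directions, with RefSeq starts 307 bases apart. The 250 bases before the HADHB start lie wholly between both starts and are shown as the stretch from which this pair diverges, at chr2:26244689-26244938 (GRCh38.p14, plus strand), with GC boxes of either strand in capitals.

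HADHB upstream: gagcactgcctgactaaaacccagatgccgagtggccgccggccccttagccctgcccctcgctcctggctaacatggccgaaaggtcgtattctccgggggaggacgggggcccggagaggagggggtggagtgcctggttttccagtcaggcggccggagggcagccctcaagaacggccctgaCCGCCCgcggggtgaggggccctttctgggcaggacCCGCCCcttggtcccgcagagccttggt

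The other members of the spiral were ECHS1 at -0.26, HADH, the short-chain hydroxyacyl-CoA dehydrogenase, at -0.17, and DECR1, a dienoyl-CoA reductase needed for polyunsaturated chains, at -0.24. ACAA2, the mitochondrial 3-ketoacyl-CoA thiolase, had 4961 and 3949 counts, a log2 difference of -0.30 (-0.36 to -0.24). ECI1, the enoyl-CoA isomerase that allows oleate to pass the double bond, was the highest of the 7, with 3370 and 3862 counts and a log2 difference of 0.22 (0.16 to 0.29). Electrons of the acyl-CoA dehydrogenases pass through electron transfer flavoprotein to its dehydrogenase. ETFA was at 0.087, ETFB at -0.057 and ETFDH at 0.27, from 1086 to 1285 counts.

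The lowest value among the members was at the ketogenic end of the pathway. BDH1 converts acetoacetate to 3-hydroxybutyrate and lies on chromosome 3 from 197509783 to 197573323. BDH1 counts were 1468 without and 528 with 9-cis-RA, 2.73-fold fewer after scaling. This is a log2 difference of -1.45 (-1.59 to -1.30), at percentile 2.16 of all compared genes. ACAT1, the mitochondrial acetoacetyl-CoA thiolase at the start of the route, had 5989 and 5126 counts, a log2 difference of -0.20 (-0.25 to -0.14). The ratio of BDH1 to ACAT1 counts was at -1.25 (95% counting interval -1.40 to -1.10).

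RefSeq gives BDH1 windows at 2 starts, and gene counts do not separate transcripts from them. The 250 bases before the downstream start hold 3 GC boxes, and those before the upstream start hold 0. The GC-rich stretch is shown because BDH1 had the lowest value among the members, at chr3:197555969-197556218 (GRCh38.p14, minus strand), with GC boxes of either strand in capitals. Neither window held the PPARα-RXR repeat.

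BDH1 upstream: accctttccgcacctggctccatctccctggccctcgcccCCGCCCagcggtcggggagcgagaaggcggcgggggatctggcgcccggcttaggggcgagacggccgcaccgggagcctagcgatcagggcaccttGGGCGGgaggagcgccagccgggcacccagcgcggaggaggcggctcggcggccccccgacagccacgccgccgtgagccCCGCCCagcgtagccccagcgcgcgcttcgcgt

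Among the 8 peroxisomal genes, EHHADH and ACAA1 were the lowest. EHHADH, the peroxisomal L-bifunctional enzyme, a classical PPARα target, lies on chromosome 3 from 185190624 to 185281990. EHHADH counts were 1872 without and 1165 with 9-cis-RA, a log2 difference of -0.66 (-0.76 to -0.55). ACAA1, the peroxisomal thiolase, which spans 38103129 to 38137242 of chromosome 3, had 11653 and 8290 counts, a log2 difference of -0.46 (-0.50 to -0.42). HSD17B4, the D-bifunctional enzyme that acts at the same steps as EHHADH on branched and very long chains, had 6127 and 5717 counts, a log2 difference of -0.072 (-0.12 to -0.020). The ratio of EHHADH to HSD17B4 counts was at -0.58 (95% counting interval -0.70 to -0.47), so the ratio between the bifunctional enzymes shifted.

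The oxidases, the reductase and the exit enzymes of the peroxisome lay between -0.083 and 0.14. ACOX2, the branched-chain oxidase that also shortens bile acid intermediates, was at 0.14 and ACOX3 at -0.083. DECR2, the peroxisomal dienoyl-CoA reductase, was at 0.081, but 14.3% of its exonic bases are shared with NME4 of the same strand, and fragments there were left out. CROT, which makes medium-chain acylcarnitines for export, was at -0.025, and ACOT8, a thioesterase that frees the shortened acids, was at 0.045. The intervals of ACOX3, CROT and ACOT8 held 0.

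To compare the compartments, 20 mitochondrial genes of the shuttle, dehydrogenases, spiral and electron transfer were set against 8 peroxisomal genes. ACADL did not pass the count minimum, which left 19. Median log2 differences were -0.057 for the 19 mitochondrial and -0.049 for the 8 peroxisomal genes, a difference of 0.0081. Scaled by total counts, the medians were -0.0078 and 0.00029. Of the mitochondrial genes 7 were higher and 12 lower, and of the peroxisomal genes 3 were higher and 5 lower. The summed levels of the 2 compartments differed more. The mitochondrial sum was 546 FPKM without and 545 with 9-cis-RA, whereas the peroxisomal sum was 78.3 and 71.6. The mitochondrial sum was 6.98 times the peroxisomal sum in the FFA library and 7.61 times in the other. Without EHHADH and ACAA1, the peroxisomal sums were 44.7 and 47.0 FPKM. Both genes were left out because they were the lowest of the 8, which by itself favours a higher remainder. FPKM are also scaled by the library total, not by the size factors behind the log2 differences. The sums without these genes are therefore a description only.

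**Figure D3:**
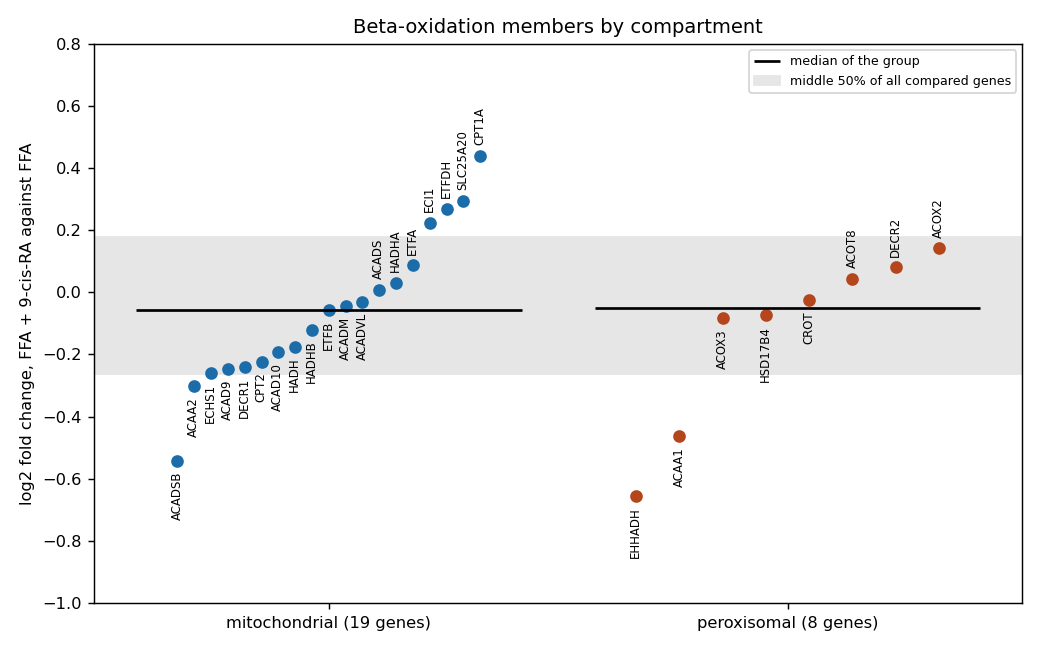
Log2 difference (axis: log2 fold change), FFA + 9-cis-RA against FFA, of the 19 mitochondrial and 8 peroxisomal genes compared, each point a gene; black lines are the medians (-0.057 and -0.049) and the grey band the middle 50% of all compared genes. The medians lie close together, and EHHADH and ACAA1 lie apart from the other peroxisomal genes.

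Step by step, the ratio of peroxisomal to mitochondrial counts shifted in both directions. At the thiolase step, ACAA1 against HADHB and ACAA2 was at -0.29 (95% counting interval -0.34 to -0.24). For hydration and the oxidation after it, EHHADH and HSD17B4 against HADHA, ECHS1 and HADH were at -0.11 (95% counting interval -0.16 to -0.059). Dienoyl-CoA reductases went the other way, with DECR2 against DECR1 at 0.32 (95% counting interval 0.21 to 0.43). The acyl-CoA oxidases ACOX2 and ACOX3 against ACADVL, ACADM and ACADS were at 0.061, with an interval that held 0 (-0.023 to 0.14). Among carnitine acyltransferases, CROT against CPT1A and CPT2 was at -0.35 (95% counting interval -0.45 to -0.24), with CROT itself at -0.025. This ratio sums CPT1A and CPT2, which act in opposite directions and differed in direction between the libraries.

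**Figure D4:**
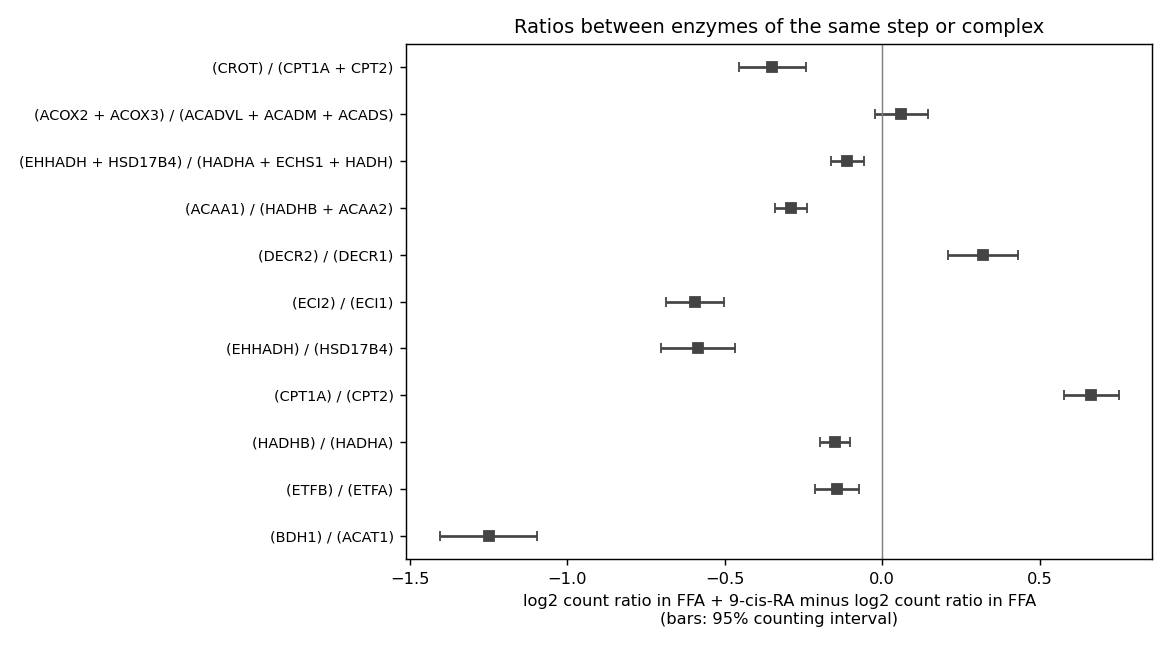
Shift of the log2 count ratio between enzymes of the same step, complex or route, FFA + 9-cis-RA minus FFA. Squares are the shifts and bars 95% counting intervals. The BDH1 to ACAT1 ratio (-1.25) has the largest shift, and only the acyl-CoA oxidase ratio has a bar that holds 0.

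The 3 genes with products in both compartments, or whose place is unsettled, were kept apart. CRAT, carnitine acetyltransferase, had 6134 and 6385 counts and a log2 difference of 0.085. ECI2, an enoyl-CoA isomerase found in peroxisomes and mitochondria, had 4333 and 3288 counts, a log2 difference of -0.37 (-0.44 to -0.30). The ratio of ECI2 to ECI1 was at -0.59 (95% counting interval -0.69 to -0.50), since the isomerases differed in direction. ACAD11 had 137 and 147 counts, and its count is uncertain because much of its exonic sequence is not unique to it in the annotation. ACOT2, a mitochondrial thioesterase, was at -0.19. It has a near-identical neighbour, ACOT1, at -0.11, and reads that align to both genes were left out.

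Other genes of the same routes were taken from lists made by function. Of 22 further mitochondrial fatty acid and ketone body genes 21 were compared, with a median of -0.17, 7 higher and 14 lower. MCEE, the methylmalonyl-CoA epimerase gene, was among the lowest, at -0.51. The highest were ETFRF1, a regulator of electron transfer flavoprotein, at 0.19 and ACSL1, a long-chain acyl-CoA synthetase, at 0.11. Of 30 further peroxisomal genes 26 were compared, with a median of 0.034, 16 higher and 10 lower. HACL1, the lyase of peroxisomal α-oxidation, was among the highest, at 0.34. PEX10, a ligase of the peroxisomal import machinery, was the lowest, with 5601 and 3053 counts and a log2 difference of -0.85 (-0.91 to -0.78), followed by AMACR at -0.62, which shares 64.7% of its exonic bases with same-strand genes.

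All 18 genes of the receptor and coregulator list were compared, with a median of 0.093, 11 higher and 7 lower. RXRA, the partner of PPARα and the main hepatic RXR, had 8291 and 5978 counts, a log2 difference of -0.44 (-0.49 to -0.40), while RXRB was at 0.30. PPARG, with 1019 and 712 counts, was the lowest of those with at least 100 counts, at -0.49. PPARD, the PPAR that is most widely expressed, was the highest at 0.49, from 1191 to 1646 counts, followed by NCOA1, a nuclear receptor coactivator, at 0.42.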

How the data were processed

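Counts of 2 RNA-seq libraries, 1 per group, were re-analyzed. The deposited values are raw fragment counts per gene that the authors made with featureCounts version 2.0.1: read pairs with both ends mapped and the fragment length checked, on the reverse strand (setting 2), over exons, leaving out multi-mapping reads and reads shared between genes. The submitters' notes name GRCh38. The aligner and annotation release are not given in the sources used here. The authors' methods name DESeq2, but 1 library per group leaves no spread to fit.

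Gene names were matched by Ensembl ID, and all 40 members were found. Size factors came from DESeq2 version 1.42.0 and TMM factors from edgeR version 4.0.16 in R version 4.3.3. Fold changes, Clopper-Pearson intervals of the share of a gene's counts, Woolf intervals of count ratios and sequence searches used Python 3.11.15 with scipy 1.17.1. The steps were tested on simulated data. The members and lists were chosen with earlier results of these data known, and the pairs of enzymes, the motifs and the sums without EHHADH and ACAA1 after their values were seen. By a written rule, counts and intervals are given for members past 0.5 with at least 100 counts and for 14 members set by name (PPARA, PPARGC1A, CPT1A, CPT2, ACADVL, ACADM, HADHA, HADHB, ACAA2, EHHADH, HSD17B4, ACAA1, PDK4, FGF21), and values for the 2 highest and 2 lowest genes with at least 100 counts in each of 3 other lists. Counts or intervals of CREB3L3, SLC25A20, ACADS, ACADL, ECI1, ECI2, ACAT1, ETFDH, PEX11A, CRAT and ACAD11, and the log2 differences of RXRB and ACOT1, were added after they were seen. Some genes that this rule names are not reported here. Alternatives were scaling by TMM or by total counts, a pseudocount of 0.1 or 5, no filter or at least 50 counts, protein-coding genes alone, removal of a length trend (lowess, fraction 0.3) and CRAT, ECI2 and ACAD11 placed with the peroxisomal genes.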

Additional observations from a re-analysis of the deposited data

How the results depend on the processing

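No interval of a median was taken, so shifts of a median were set against the counting error of its middle gene. The member median moved by no more than this error under every alternative run. The difference between compartments moved by no more than the combined error of the middle genes of both compartments. The peroxisomal median also stayed within the error of its middle gene, although with total-count scaling it turned from -0.049 to 0.00029. The mitochondrial median was -0.0078 with total-count scaling and -0.11 with the length trend removed. Total-count scaling also changed the sign of 3 members near 0, ACADM, ACADVL and CROT, and no other alternative changed one. Of 310 values of single members under the alternatives, 17 left their counting interval. Requiring 50 counts left 0 members above 0.5 and 0 above 1, since PDK4 and FGF21 were then not compared. Over all genes, 341 lay above 1 and 594 below -1 with a pseudocount of 5. These numbers were 3771 and 2493 with no filter, 153 and 361 when 50 counts were required, and 270 and 446 among protein-coding genes. Of all genes past 1 in either direction 59.3% were lower, against 39.8% with no filter and 70.2% when 50 counts were required. Placing peroxisomal genes by the last 3 residues of their proteins was not run, as protein sequences were not used here. No paired analysis was possible because each group has 1 library, and no library could be left out.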
